A study of Rattus norvegicus with 12 samples.

Results

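The rosiglitazone effect that lean and obese kidneys share was taken as the mean of 2 differences, rosiglitazone minus control in lean rats and rosiglitazone minus control in obese rats. All 12 arrays of the series entered, 12 of 12, so 6 arrays from rosiglitazone-fed rats stood against 6 from control rats with body type in the model. The rats were male Zucker rats, a strain in which obesity comes from a mutation of the leptin receptor, and their labels give a diabetes model. Lean control and obese control rats ate ground chow, and lean rosiglitazone and obese rosiglitazone rats ate the same chow with 3 mg/kg rosiglitazone for 12 weeks. Each of these 4 groups held 3 rats with 1 array each. All groups shared the chow, free access to food and water and the duration, and the age at the start is not given in the sources used here. Whole-kidney RNA was measured on a rat expression array, and a value is the deposited MAS5 signal of a probe set, a group of probes that report 1 transcript.

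Rosiglitazone is a thiazolidinedione that binds and activates PPARgamma, a nuclear receptor that pairs with RXR on DNA and turns on genes of fatty acid uptake, binding and storage. PPARgamma is most abundant in fat cells. In the kidney it is known from collecting duct cells and from the endothelium of small vessels, and the drug class is known for retention of salt and water. Genes driven by the receptor are therefore looked for in fat, in vessels and in tubules, and a kidney sample can hold all of these.

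Median signals lay between 204 and 239 on the 12 arrays, no array repeated another, and the first principal component, 29.6% of the variance, separated lean from obese rats. Lean rosiglitazone array 3 stood apart on the second component, at −35.64 against −13.39 to 17.80 for the others. The cre hybridization control had signals of 16778 to 18471 on 5 arrays and 12031 to 13708 on the other 7. The higher class held 2 lean control, 2 lean rosiglitazone, 1 obese control and 0 obese rosiglitazone arrays. The 3′ to 5′ ratio of Gapdh, a sign of RNA integrity, was 1.12 to 1.32 on control and 1.07 to 1.28 on rosiglitazone arrays. That of beta-actin was higher and more variable, 1.82 to 2.24 on control and 1.57 to 2.4 on rosiglitazone arrays. Kidney identity was plain from Umod, the uromodulin of the thick ascending limb, at 16369 to 23092, and from Aqp2, the collecting duct water channel, at 9920 to 13230.

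Few probe sets were called on the mean of the lean and the obese change, a mean that 1 body type alone can carry. Over both body types, 11 of 18625 probe sets (0.0591%) passed an adjusted p of 0.05 with limma, 9 higher on the drug (0.0483%) and 2 lower (0.0107%). The higher ones were Fabp4, Ucp1, Rbp7, Cd36, Slc22a13, Inmt, Scd2, Tro and the probe set 1386901_at, to which the array annotation gives several symbols. The lower ones were Cotl1 and the probe set 1397500_x_at, which has no symbol here. All 11 moved in 1 direction in lean and in obese rats, by 0.51 to 2.42 log2 units over both, and 5 of them at least 2-fold. In 7 of the 11, every rosiglitazone array lay on one side of every control array within each body type, a pattern that 110 of 18625 probe sets (0.591%) had.

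**Figure D1:**
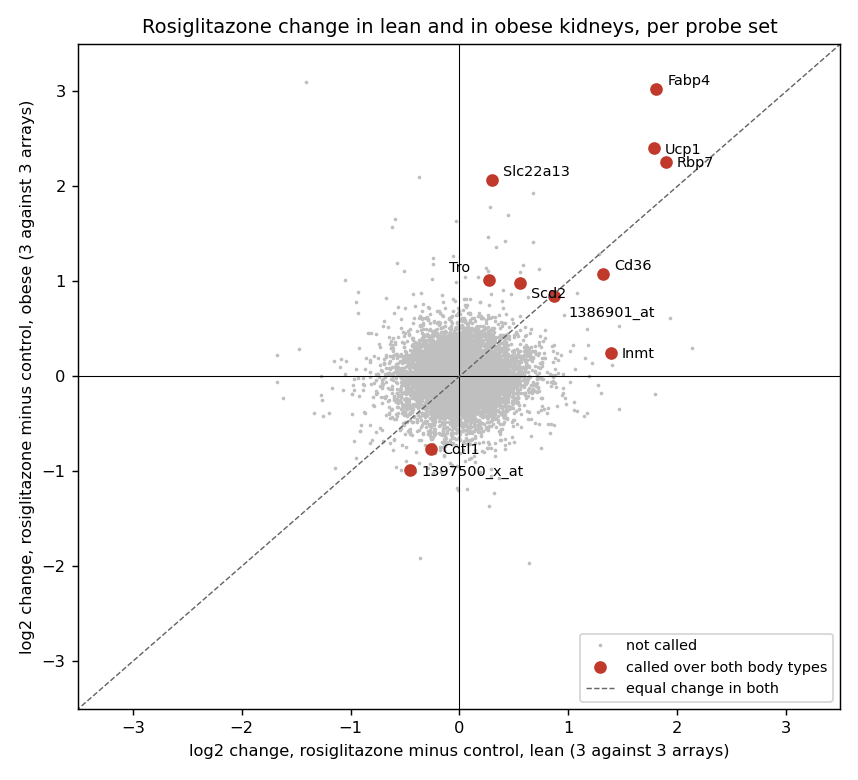
Log2 change in lean rats (horizontal axis) against log2 change in obese rats (vertical axis), 1 point per probe set, with the 11 called probe sets in red and a dashed line where both changes are equal. Fabp4, Ucp1, Rbp7, Cd36 and 1386901_at lie far along the upper right diagonal, Inmt near the lean axis and Slc22a13 near the obese axis, while the other points form a round cloud.

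Fabp4 encodes the fat cell and capillary endothelial fatty acid binding protein, a classic PPARgamma target. Its signals were 1068, 1065 and 2408 in lean control rats and 4343, 7256 and 3864 in lean rats on the drug. In obese rats they were 216, 502 and 492 on control chow and 4111, 2862 and 2776 on the drug. The diets did not overlap in either body type, and treated obese rats lay above every lean control rat. In whole-kidney RNA more cells of a type and more RNA per cell cannot be told apart, for this and every gene below. Fabp4 was 5.35-fold higher over both (log2 2.42, SE 0.26, adjusted p = 0.00324 with limma), with log2 changes of 1.81 in lean and 3.03 in obese rats. The difference between body types was 1.22 (SE 0.52), with an unadjusted p of 0.0359 and an adjusted p of 0.992.

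Cd36 encodes a fatty acid translocase of endothelial cells, fat cells and macrophages, and its gene is another target of the receptor. It read 469, 260 and 372 in lean control, 1030, 1034 and 718 in lean rosiglitazone, 300, 419 and 424 in obese control and 746, 941 and 776 in obese rosiglitazone rats. Control signals overlapped between body types, and so did treated ones. Cd36 was 2.30-fold higher over both (log2 1.20, SE 0.15, adjusted p = 0.00518 with limma), by 1.32 in lean and 1.08 in obese rats. The probe set 1386901_at had a similar pattern at a higher signal. Its values were 2161, 1945 and 2164 in lean control, 3922, 4529 and 3141 in lean rosiglitazone, 1660, 2556 and 2205 in obese control and 4223, 4042 and 3215 in obese rosiglitazone rats. The change over both was 1.81-fold (log2 0.86, SE 0.11, adjusted p = 0.0109 with limma), and the lean and obese changes were 0.87 and 0.85.

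Rbp7 encodes a cellular retinol binding protein made in endothelium and fat. Its signals were 91.6, 120 and 98.6 in lean control, 566, 449 and 308 in lean rosiglitazone, 45.1, 16.5 and 66.7 in obese control and 326, 185 and 246 in obese rosiglitazone rats. Again no control array reached a treated one of its body type. Rbp7 was 4.23-fold higher over both (log2 2.08, SE 0.23, adjusted p = 0.00318 with limma), by 1.90 in lean and 2.26 in obese rats. The lean and obese changes of Rbp7, Cd36 and 1386901_at differed by 0.35 (SE 0.47), −0.24 (SE 0.30) and −0.02 (SE 0.23) log2 units, with unadjusted p of 0.46, 0.439 and 0.925.

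Ucp1 is the uncoupling protein of brown fat. It read 803, 632 and 894 in lean control, 2357, 5435 and 1535 in lean rosiglitazone, 32.8, 6.87 and 4.11 in obese control and 79.1, 132 and 220 in obese rosiglitazone rats. The diets did not overlap in either body type, yet the highest treated obese array lay below the lowest lean control array. Ucp1 was 4.28-fold higher over both (log2 2.10, SE 0.32, adjusted p = 0.0456 with limma). Bacterial control probe sets for transcripts that rats lack, 27 in number, had a 95th percentile signal of 68.9, and the obese control means of Ucp1 (14.6 ± 15.8, SD, n = 3) and Rbp7 (42.8 ± 25.2, SD, n = 3) were under it. Their obese log2 changes therefore depend on the offset of 16 added before the log. With an offset of 64 the change over both was 1.55 for Ucp1 (adjusted p = 0.0844 with limma) and 1.57 for Rbp7, which stayed called. Both genes passed the filter on dim probe sets only through the treated rats, which limits every count of calls that holds them.

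Scd2 encodes a stearoyl-CoA desaturase, which makes monounsaturated fatty acids. Its brightest probe set read 3304, 2758 and 4369 in lean control and 5821, 4315 and 5149 in lean rosiglitazone rats, so the lean groups overlapped by 1 array. Obese control rats had 1890, 2365 and 1836 and obese rosiglitazone rats 3777, 4781 and 3533, with no overlap. Scd2 was 1.71-fold higher over both (log2 0.77, SE 0.12, adjusted p = 0.0448 with limma). Other Scd2 probe sets had log2 changes of 0.93 (adjusted p = 0.183), 0.74 (adjusted p = 0.527) and, for one below the filter on dim probe sets, 0.12.

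Promoters of the called genes are shown because the receptor of the drug binds DNA. RefSeq (GRCr8) gave 250 bases before the start for 7 of the 9 called genes with a symbol, all but Fabp4 and Tro. The 7 promoters were searched on both strands for the letters AGGTCA, the single site of many nuclear receptors. They were also searched for the direct repeat on which PPAR and RXR sit, AGGTCA, then any 1 base, then AGGTCA, and for a looser repeat, AGGNCA, then any 1 base, then AGGNCA, which contains the strict one. In this window 0 of the 7 held any of the 3. Among 33469 rat promoters of the same length, 0.0508% held the strict repeat, 0.368% the looser one and 14.1% the single site. At such shares 0 repeats in 7 promoters says little about these genes, and sequence beyond the 250 bases was not searched. TATAAA, or TTTATA on the other strand, which was searched for after the data were seen, stood in 12.9% of promoters and is written in capitals. It was found 30 to 25 bases before the Ucp1 start, 21 to 16 before the Inmt start and 175 to 170 before the Cd36 start. The stretches of the 4 matched genes that were called higher with no overlap in either body type are chr5:165177400-165177649, minus strand, for Rbp7, chr4:18246332-18246581, plus strand, for Cd36, chr19:41721422-41721671, minus strand, for Ucp1 and chr4:85652756-85653005, minus strand, for Inmt.
Rbp7: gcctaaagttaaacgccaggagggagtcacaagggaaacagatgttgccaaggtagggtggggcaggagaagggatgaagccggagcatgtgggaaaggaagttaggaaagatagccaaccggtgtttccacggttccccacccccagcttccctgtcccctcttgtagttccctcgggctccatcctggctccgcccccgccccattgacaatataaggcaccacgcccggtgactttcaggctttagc
Cd36: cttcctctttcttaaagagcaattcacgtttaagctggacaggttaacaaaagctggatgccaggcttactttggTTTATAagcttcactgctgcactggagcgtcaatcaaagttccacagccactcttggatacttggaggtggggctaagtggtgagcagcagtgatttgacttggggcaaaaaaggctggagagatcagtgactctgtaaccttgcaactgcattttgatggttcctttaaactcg
Ucp1: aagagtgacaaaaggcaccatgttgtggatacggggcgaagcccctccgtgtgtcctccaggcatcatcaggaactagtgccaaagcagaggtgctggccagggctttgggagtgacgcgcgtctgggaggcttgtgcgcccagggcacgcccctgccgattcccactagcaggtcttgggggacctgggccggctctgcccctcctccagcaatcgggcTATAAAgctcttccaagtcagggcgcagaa
Inmt: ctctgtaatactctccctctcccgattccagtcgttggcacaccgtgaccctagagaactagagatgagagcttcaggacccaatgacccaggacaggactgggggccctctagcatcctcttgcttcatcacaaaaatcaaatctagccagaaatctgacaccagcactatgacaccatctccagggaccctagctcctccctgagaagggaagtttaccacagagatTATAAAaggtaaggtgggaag

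Inmt, an N-methyltransferase of indole amines, had the smallest p of all probe sets. Its signals were 1936, 2389 and 1747 in lean control, 5189, 5403 and 5309 in lean rosiglitazone, 6672, 5621 and 5694 in obese control and 6747, 7573 and 7049 in obese rosiglitazone rats. The diets did not overlap in either body type, but the obese margin was narrow, from 6672 on control chow to 6747 on the drug. Over both body types Inmt was 1.77-fold higher (log2 0.82, SE 0.08, adjusted p = 6.7e-04 with limma), by 1.39 in lean and by 0.25 in obese rats. That difference, −1.14 (SE 0.15), was the nearest to a call of any probe set (unadjusted p = 2.93e-06, adjusted p = 0.0546 with limma).

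Slc22a13, an organic anion transporter of the proximal tubule, and Tro, the adhesion protein trophinin, were called on obese changes for the most part. Slc22a13 read 875, 724 and 584 in lean control and 900, 1172 and 660 in lean rosiglitazone rats, which overlapped. Obese control rats had 109, 76.3 and 55.9 and obese rosiglitazone rats 354, 460 and 335. The obese change was 2.07 and the lean change 0.30, a difference of 1.77 (SE 0.34, unadjusted p = 1.15e-04, adjusted p = 0.344 with limma). Tro read 761, 680 and 638 in lean control and 816, 957 and 749 in lean rosiglitazone rats. In obese rats it read 307, 284 and 336 on control chow and 781, 530 and 642 on the drug. Its changes were 0.27 in lean and 1.02 in obese rats, so for both genes the lean groups overlapped and only the obese groups were apart.

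Cotl1, a coactosin-like protein that binds actin filaments, was the 1 named gene called lower. Lean control rats had 1419, 1850 and 1639 and lean rosiglitazone rats 1398, 1267 and 1392. Obese control rats had 2317, 2133 and 2226 and obese rosiglitazone rats 1327, 1507 and 1123. The log2 change over both was −0.51 (SE 0.08, adjusted p = 0.0456 with limma), −0.26 in lean and −0.76 in obese rats, with a lean margin of 1398 against 1419. The probe set 1397500_x_at, whose suffix marks probes shared with other transcripts, had −0.72 over both (SE 0.12, adjusted p = 0.0456 with limma), −0.45 in lean rats, where the diets overlapped, and −0.99 in obese rats.

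**Figure D2:**
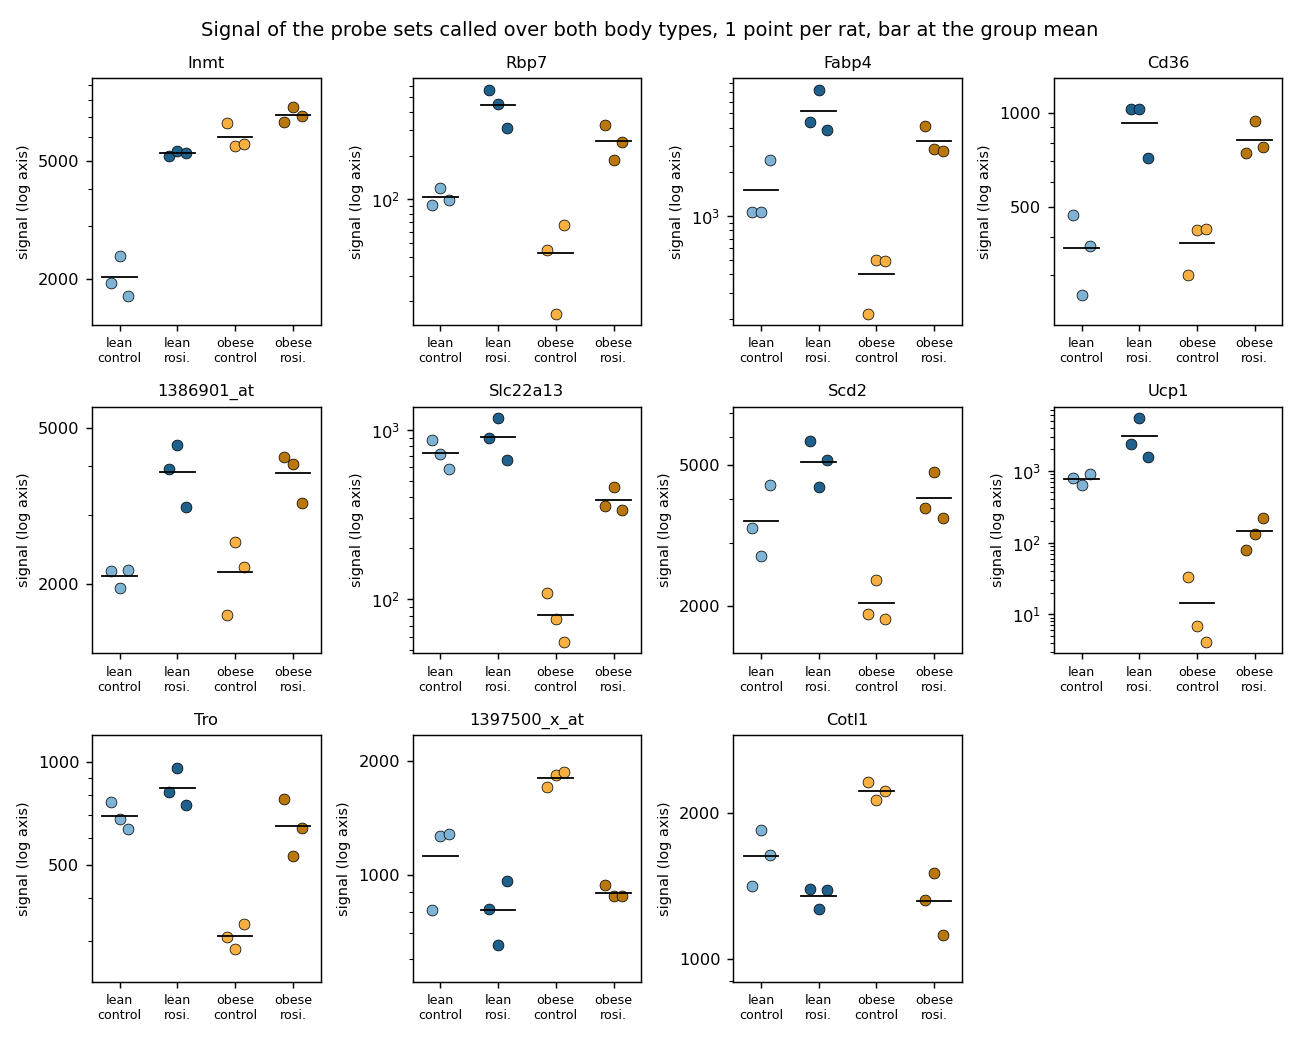
Signal (log axis) of each of the 11 called probe sets, 1 point per rat in each of the 4 groups, with a bar at the group mean. Rbp7, Fabp4, Cd36 and 1386901_at are higher on rosiglitazone in lean and in obese rats alike, whereas Slc22a13 and Tro overlap between diets in lean rats and Inmt is near its treated level already in obese control rats.

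Whether a change was present in each body type by itself was asked with a conjunction, in which the larger of the lean and obese p-values counts and both changes must have 1 sign. With limma 0 of 18625 probe sets (0%) passed after adjustment, and 48 had an unadjusted conjunction p under 0.05, 22 higher and 26 lower. Rbp7 came nearest (adjusted p = 0.845 with limma), followed by Cd36 and 1386901_at (adjusted p = 0.854 for each with limma). Of the 11 probe sets called over both, 9 had an unadjusted limma p under 0.05 in each body type, and Slc22a13 (lean change 0.30, SE 0.24) and Tro (lean change 0.27, SE 0.15) did not. By itself the lean comparison called 1 probe set (0.00537%) and the obese comparison 13 (0.0698%). No difference between the lean and the obese effect passed adjustment with limma, 0 of 18625 (0%), and 802 had an unadjusted p under 0.05.

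Just outside the threshold lay Fabp5, PCOLCE2, Igsf11 and Smoc2, which brought the count to 15 at an adjusted p of 0.1. Fabp5, the epidermal fatty acid binding protein, had 0.46 over both (adjusted p = 0.0663 with limma), but 0.10 in lean and 0.82 in obese rats. PCOLCE2, an enhancer of procollagen processing, had nearly equal values, −0.60 in lean and −0.66 in obese rats (adjusted p = 0.0965 over both with limma), and its diets did not overlap in either. It read 336, 471 and 377 in lean control and 239, 282 and 240 in lean rosiglitazone rats. Obese rats had 525, 389 and 494 on control chow and 299, 275 and 292 on the drug. Igsf11, an adhesion molecule, had −0.41 and Smoc2, a matricellular protein, −0.52 over both (adjusted p = 0.0965 for each with limma). Their changes were −0.22 and −0.32 in lean rats, where the diets overlapped, and −0.59 and −0.72 in obese rats.

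Over all probe sets the lean and the obese changes were nearly uncorrelated. Across 18625 probe sets the lean and the obese log2 change, which share no array, had Pearson r = 0.04 (jackknife SE over arrays 0.14) and Spearman rho = 0.00, and 49.6% had 1 sign. Probe sets are not independent replicates, and the changes share the array type and scaling. Shares of 1 sign were higher at the top of each ranking. Of the 20 probe sets with the smallest lean p, 13 had the same sign in obese rats, and 5 of these had an obese p under 0.05 against 0 of opposite sign. Of the 20 with the smallest obese p, 14 had the same sign in lean rats, 5 with a lean p under 0.05 against 3 of opposite sign. At 500 probe sets the shares were 52% and 61%.

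Probe sets whose diets did not overlap in either body type were also counted, whether or not they were called. They numbered 34 higher (0.183%) and 76 lower (0.408%) of 18625 probe sets, against 79 (0.424%) that did not overlap in both but in opposite directions. In lean rats alone 1590 (8.54%) and in obese rats alone 2217 (11.9%) did not overlap. With 79 in opposite directions, a place among the 34 or the 76 does not by itself show a shared change. The following genes were picked from these after their values were seen, and none was called. Among those higher were Slc6a6, the taurine transporter, at 0.46 (adjusted p = 0.101), Gpihbp1, which anchors lipoprotein lipase on capillaries, at 0.83 (adjusted p = 0.23), and Igfbp5, a binding protein for insulin-like growth factors, at 0.55 and 1.30 for its 2 probe sets. Among those lower were Prom1, an apical membrane protein of tubule cells, at −0.33 (adjusted p = 0.137), Pth1r, the parathyroid hormone receptor, at −0.30 (adjusted p = 0.327), and Slc40a1, the iron exporter ferroportin, at −0.48 (adjusted p = 0.388). Other probe sets of Slc6a6, Pth1r and Slc40a1 had 0.30, −0.03 and −0.11 to −0.16. All adjusted p-values here are limma's over all probe sets.

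At least 1.5-fold in each body type and in 1 direction were 13 probe sets higher (0.0698%) and 11 lower (0.0591%), against 13 (0.0698%) past that size in opposite directions. Of these 24, 5 were called, all of them higher, and 12 did not overlap in either body type. Fabp4, Ucp1, Rbp7, Cd36, 1386901_at, 2 probe sets of Scd2 and 1 of Igfbp5 were among the higher. Klk1c4, a tissue kallikrein, had 1.28 in lean and 1.29 in obese rats (adjusted p = 0.388 over both with limma), but its lean groups overlapped, with 524, 130 and 175 on control chow and 616, 430 and 752 on the drug. Prss35, a serine protease, had 0.68 and 1.42 (adjusted p = 0.137 with limma). Among the lower ones was Col1a1, a chain of type I collagen, with 459, 540 and 447 in lean control, 429, 273 and 253 in lean rosiglitazone, 563, 971 and 588 in obese control and 327, 438 and 421 in obese rosiglitazone rats. It did not overlap in either body type, at −0.69 over both (SE 0.16), and was not called (adjusted p = 0.274 with limma). A second Col1a1 probe set had −0.42. Klk1c4, Prss35 and Col1a1 were chosen after their values were seen.

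Gene lists by role were described by counts and medians over the genes that passed the filter on dim probe sets, with 1 probe set a gene. As background, 8 of 10524 genes (0.076%) were called higher and 1 lower (9 in all, 0.0855%), the median change was −0.01, and 2419 genes were higher and 2850 lower in both body types. Of the 50 listed PPARgamma targets 45 were on the array and 41 passed the filter. Called higher were 4 of the 41, Fabp4, Cd36, Rbp7 and Ucp1, and 0 were called lower. The median change was 0.14 over both, 0.10 in lean and 0.18 in obese rats, and 25 of the 41 were higher and 8 lower in both body types. At an unadjusted p under 0.05, 16 were higher and 2 lower, beside 240 and 348 of the 10524 genes. The lists were chosen with earlier results of these data known, so these counts are description only.

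No other listed target was called. Cidea, a lipid droplet protein, had 1.00 (adjusted p = 0.183), Plin1, the fat droplet coat protein, 0.67 (adjusted p = 0.507), and Plin4, another droplet protein that was chosen after its values were seen, 0.58 (adjusted p = 0.62). Cidea and Plin1 had 1.47 and 1.15 in lean rats but 0.53 and 0.19 in obese rats, where the diets overlapped. A dimmer probe set of Plin1 had −0.02, with 0.29 in lean and −0.34 in obese rats. Angptl4, an inhibitor of lipoprotein lipase, had 0.53, Lpl itself 0.37 (adjusted p = 0.782) and Acsl1, which activates fatty acids, 0.26. Pdk4, a kinase that restrains pyruvate oxidation, had 0.05 and Plin2, a droplet protein of many cell types, −0.04. Hilpda, which inhibits droplet lipolysis and was likewise chosen after its values were seen, had −0.39 and did not overlap in either body type. The receptor gene Pparg read 189 ± 29.9 in lean control, 248 ± 61.8 in lean rosiglitazone, 203 ± 47.7 in obese control and 247 ± 18 in obese rosiglitazone rats (SD, n = 3 each), with a change of 0.32 (adjusted p = 0.993). Ppard had 0.06, and Ppara and Rxra lay below the filter. Of 20 measured receptors, partners and coregulators 0 were called, with a median of 0.02. All adjusted p-values in this paragraph are limma's over all probe sets.

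Summed white fat markers were higher on the drug in both body types. The summed signal of 14 white fat markers was 10501 to 15752 in lean control, 17682 to 27115 in lean rosiglitazone, 7450 to 8108 in obese control and 11485 to 12663 in obese rosiglitazone rats, with no overlap between diets. Without Fabp4, a comparison added after the data were seen, the sums were 9436 to 13345, 13818 to 19859, 6948 to 7718 and 8552 to 9211, again with no overlap. The 14 markers had a median change of 0.30, 11 were higher and 1 lower in both body types, and Fabp4 alone was called. Adipoq, the fat cell hormone adiponectin, read 645, 589 and 670 in lean control, 1021, 1110 and 710 in lean rosiglitazone, 410, 448 and 644 in obese control and 583, 536 and 640 in obese rosiglitazone rats. Its lean groups were apart and its obese groups overlapped, at 0.54 and 0.24. Car3, the carbonic anhydrase of fat and muscle, had 2.14 in lean and 0.30 in obese rats (adjusted p = 0.137 over both with limma). Its other probe set had 1.80 in lean and −0.19 in obese rats.

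Summed brown fat markers were apart between diets in lean rats only. The sums of 13 markers were 10506 to 12185 in lean control, 14926 to 22414 in lean rosiglitazone, 9519 to 10619 in obese control and 9821 to 11156 in obese rosiglitazone rats, so they overlapped in obese rats. Without Ucp1 they were 9874 to 11291, 13076 to 16979, 9486 to 10612 and 9742 to 11024, and the median of the other 12 genes was 0.26 in lean and 0.06 in obese rats. Cox8b, a cytochrome oxidase subunit of brown fat and muscle, read 387, 169 and 593 in lean control, 1028, 2179 and 1080 in lean rosiglitazone, 31.2, 32 and 24.7 in obese control and 31.6, 49.3 and 90.8 in obese rosiglitazone rats. Lean rosiglitazone array 2 had the highest white and brown fat sums of all arrays. Lgals12 and Npr3 of the white fat list and Dio2, Elovl3 and Ebf2 of the brown fat list were at or under 68.9 in the mean of every group. The part of fat tissue in the changes of Fabp4, Ucp1, Cd36, Rbp7 and Scd2 was not tested. Outside both fat lists 29 PPARgamma targets remained, with 2 called higher, Cd36 and Rbp7, and a median of 0.05.

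**Figure D3:**
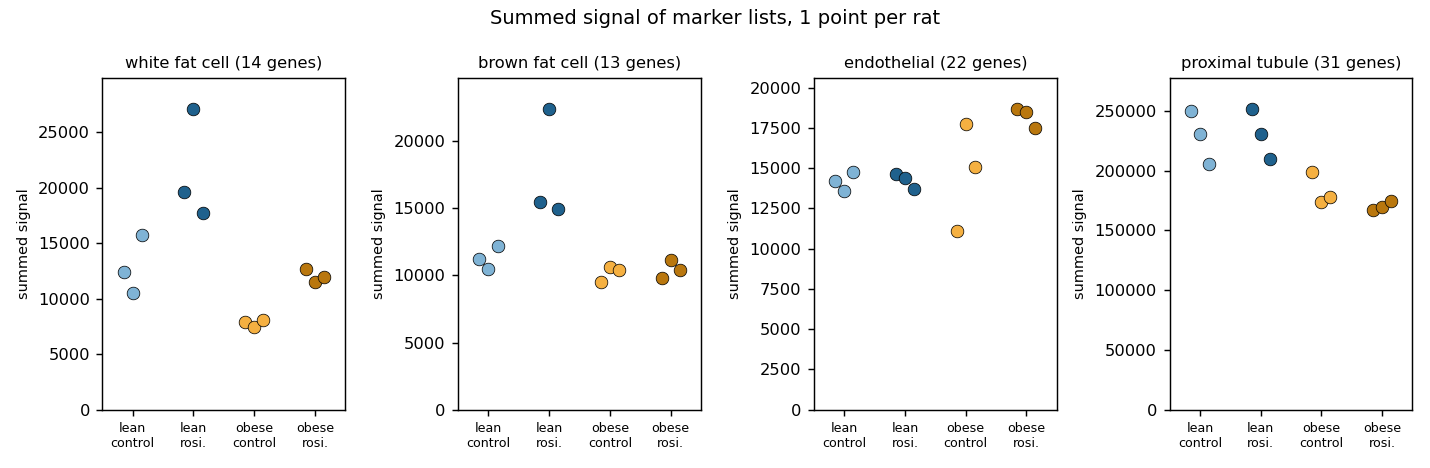
Summed signal (linear axis from 0) of 14 white fat, 13 brown fat, 22 endothelial and 31 proximal tubule markers, 1 point per rat in each of the 4 groups. White fat sums are apart between diets in both body types, brown fat sums only in lean rats, and endothelial and proximal tubule sums overlap between diets in lean rats.

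Vessel and tubule markers were described in the same way. Of 22 endothelial markers 1 was called, Rbp7, with 12 higher and 1 lower in both body types. The list median was 0.17 over both, 0.07 in lean and 0.27 in obese rats, beside 0.13, 0.27 and 0.12 for brown fat markers. Their sums were 13578 to 14761 in lean control and 13703 to 14627 in lean rosiglitazone rats, which overlapped, as did 11063 to 17754 in obese control and 17457 to 18694 in obese rosiglitazone rats. The endothelial adhesion molecule Pecam1 had 0.34 (adjusted p = 0.953), the receptor kinase Tek 0.31 (adjusted p = 0.782) and the sialomucin Emcn 0.28 (adjusted p = 0.936). Their lean values were 0.21, 0.07 and 0.03, and their obese values 0.47, 0.56 and 0.52. Without obese control array 1, which had the endothelial sum of 11063, the obese values were 0.26, 0.33 and 0.28. Of 31 proximal tubule markers 1 was called, Slc22a13, with a list median of −0.07, 5 higher and 11 lower in both body types. At an unadjusted limma p under 0.05, 2 of them were higher and 5 lower. Slc17a3, a phosphate and urate transporter, had −0.33 (adjusted p = 0.413) with no overlap in either body type. Sums of this list were 205940 to 250105 and 209462 to 252033 in lean control and treated rats, and 174212 to 198551 and 166859 to 174294 in obese ones. The endothelial and tubule part in the called genes was not tested, and the adjusted p-values are limma's.

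Genes of fatty acid uptake had 1 sign in both body types more often than genes of fatty acid synthesis, a difference that was not tested. Of 25 genes of uptake and lipolysis 2 were called higher, Fabp4 and Cd36, and 16 were higher and 2 lower in both body types, 72% having 1 sign, with medians of 0.09 in lean and 0.08 in obese rats. Of 21 genes of fatty acid synthesis 1 was called, Scd2, but only 33.3% had 1 sign in both body types, and the medians were 0.00 in lean and 0.24 in obese rats. Fasn, fatty acid synthase, had −0.59 in lean and 1.66 in obese rats on its brighter probe set and −0.69 and 0.58 on the other, and Scd, another desaturase, −1.41 and 3.10. Both were chosen after their values were seen. Srebf1, a transcription factor of lipid synthesis, had 0.22 and 0.53 on its brighter probe set (adjusted p = 0.518 over both with limma). Its other probe set had 0.43 in lean and 0.36 in obese rats. Of 39 genes of fatty acid oxidation and ketone synthesis 0 were called, with a median of −0.03. Of 17 retinoid genes 1 was called, Rbp7, with a list median of −0.02 over both although the lean and obese medians were 0.07 and 0.03. Of 34 xenobiotic genes Inmt alone was called, with a median of 0.04.

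Sodium and water transport genes, on which the drug class is thought to act, had a median change close to that of all genes. Of 27 distal transport genes 0 were called, with a median of 0.05 in lean and in obese rats. In both body types 12 were higher (44.4%) and 3 lower (11.1%), beside 23% and 27.1% of all genes. The epithelial sodium channel subunits Scnn1a, Scnn1b and Scnn1g had 0.08, 0.14 and −0.13, the kinase Sgk1 that regulates them 0.05, the cotransporter Slc12a3 −0.05, and the water channels Aqp2 and Aqp3 −0.03 and 0.10. Their standard errors were 0.07 to 0.14, and another probe set of Scnn1g had 0.06. Sgk1 had −0.28 in lean and 0.38 in obese rats, where the obese groups did not overlap. Scnn1b had 0.31 in lean and −0.03 in obese rats. The thick ascending limb, collecting duct and intercalated cell lists had medians of 0.05, 0.03 and 0.10 with 0 called.

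Of 25 matrix genes 0 were called. Their summed signal was 26049 to 26688 in lean control and 22366 to 26517 in lean rosiglitazone rats, and 28253 to 32831 and 28896 to 30857 in obese control and treated rats, so the diets overlapped in both. The median change was −0.16, with −0.21 in lean and −0.14 in obese rats, 3 genes higher and 13 lower in both, and 5 lower against 0 higher at an unadjusted p under 0.05. Besides Col1a1, Col4a2, a basement membrane collagen chain also chosen after its values were seen, did not overlap in either body type, at −0.35 (adjusted p = 0.582 with limma). Leukocyte markers had a median of −0.16 over both, but 0.02 in lean and −0.26 in obese rats. Injury markers had −0.05, and within that list Havcr1, the kidney injury molecule, had −0.76 (SE 0.50). Its obese control signals were 2592, 277 and 679, and without the first of these arrays its obese change was −0.11. Spp1, osteopontin, had −0.09. The 10 podocyte markers had a median of 0.18, with 7 higher and 0 lower in both body types and 0 called. Their sums overlapped between diets, at 6542 to 10266 in lean control and 7596 to 9562 in lean rosiglitazone rats. In obese rats the podocyte sums were 6957 to 11941 on control chow and 8667 to 12044 on the drug, which overlapped too.

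No member was called, in either direction, of the 23 remaining lists, those named above without a call included. Their medians over both ran from −0.16 to 0.25, the highest being that of 6 urothelium markers. Cell cycle genes had −0.15, immediate early and heat shock genes −0.10, cholesterol synthesis −0.01, glucose metabolism and insulin signalling 0.01, the respiratory chain 0.00, the unfolded protein response −0.03, glutathione and oxidative stress −0.03, the renin angiotensin system −0.03, the circadian clock 0.05, and smooth muscle −0.03. Red blood cell markers had 0.00 over both, with −0.46 in lean and 0.24 in obese rats, and adrenal cortex markers 0.02. The leptin receptor Lepr, whose mutation defines the obese rats, had 0.29 (adjusted p = 0.999 with limma) at signals of 83.5 to 213.

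**Figure D4:**
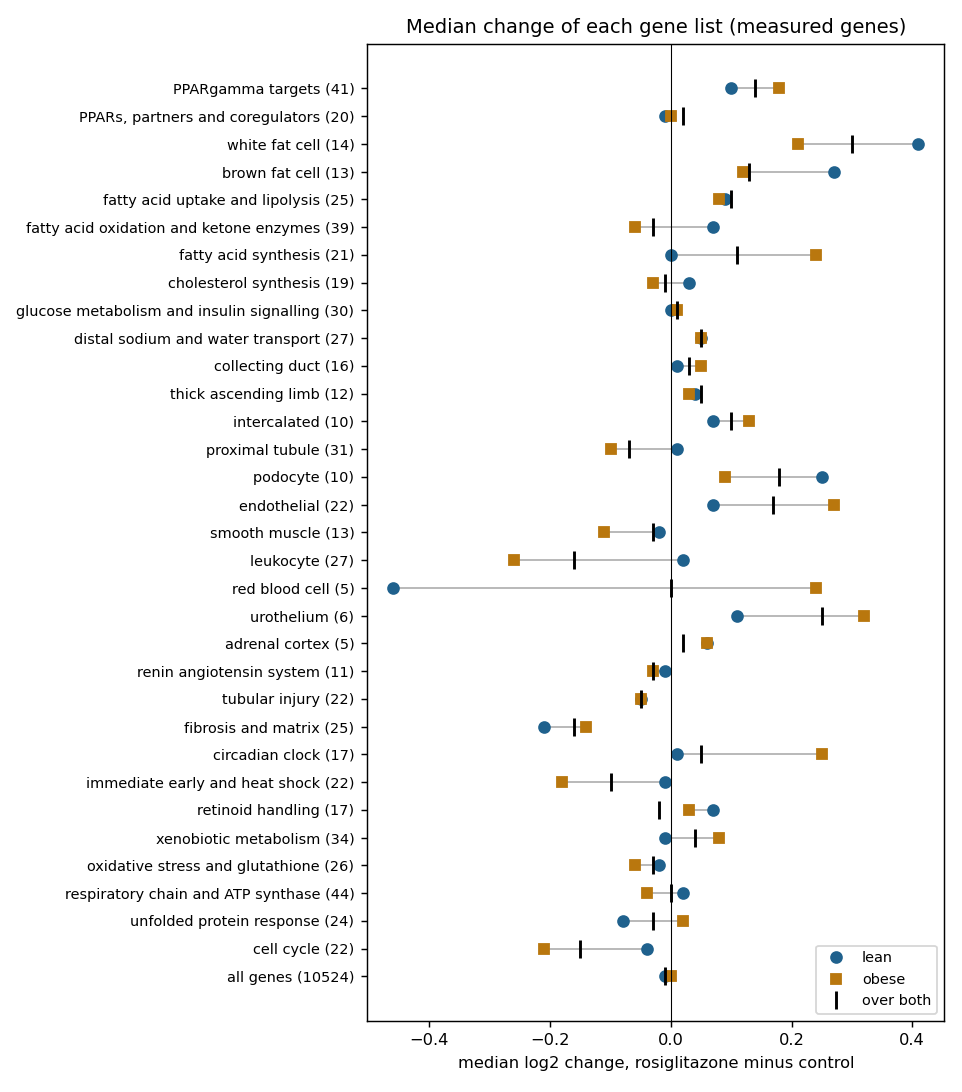
Median log2 change of each of 32 gene lists and of all 10524 genes, in lean rats (circles), obese rats (squares) and over both (bars), with the number of measured genes in brackets. The white fat list has the highest median over both, 0.30, and the fatty acid synthesis, leukocyte and red blood cell lists have lean and obese medians that lie apart.

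How firmly a call stood differed between the genes. Over 24 alternative settings Fabp4 was called in 24, Inmt and Cd36 in 23 each, 1386901_at in 20 and Rbp7 in 17. In the other 7 Rbp7 was below the filter, which it passed only through the treated rats, so its 17 cannot be set beside the 24 of Fabp4. Slc22a13 was called in 13, Scd2 and 1397500_x_at in 7 each, Ucp1 in 6 of 22, Cotl1 in 6 and Tro in 5. Inmt was lost in the model without an interaction term (adjusted p = 0.343 with limma), and Cd36 within the lower spike-in class (adjusted p = 0.0963 with limma). Leaving out 1 array gave 9 calls without lean control array 1, 7 without 2 and 10 without 3. It gave 4 without lean rosiglitazone array 1, 4 without 2 and 10 without array 3, the one that stood apart. The counts were 9, 6 and 5 without obese control arrays 1, 2 and 3, and 3, 7 and 7 without obese rosiglitazone arrays 1, 2 and 3. Fabp4, Inmt and Cd36 were called in all 12 of these fits. Rbp7 was below the filter without any 1 lean rosiglitazone array or obese rosiglitazone array 1, and called in the other 8 fits. The probe set 1386901_at lost its call without lean rosiglitazone array 1 or obese rosiglitazone array 1. Slc22a13 kept its call without lean control array 1 or 3, lean rosiglitazone array 3, obese rosiglitazone array 3 or obese control array 1. Scd2 kept its call only without lean control array 3 or obese control array 2, Ucp1 only without lean rosiglitazone array 3 or obese control array 1, Tro only without obese rosiglitazone array 2, Cotl1 only without lean control array 1 or obese rosiglitazone array 2, and 1397500_x_at only without lean control array 1 or lean rosiglitazone array 3.

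**Figure D5:**
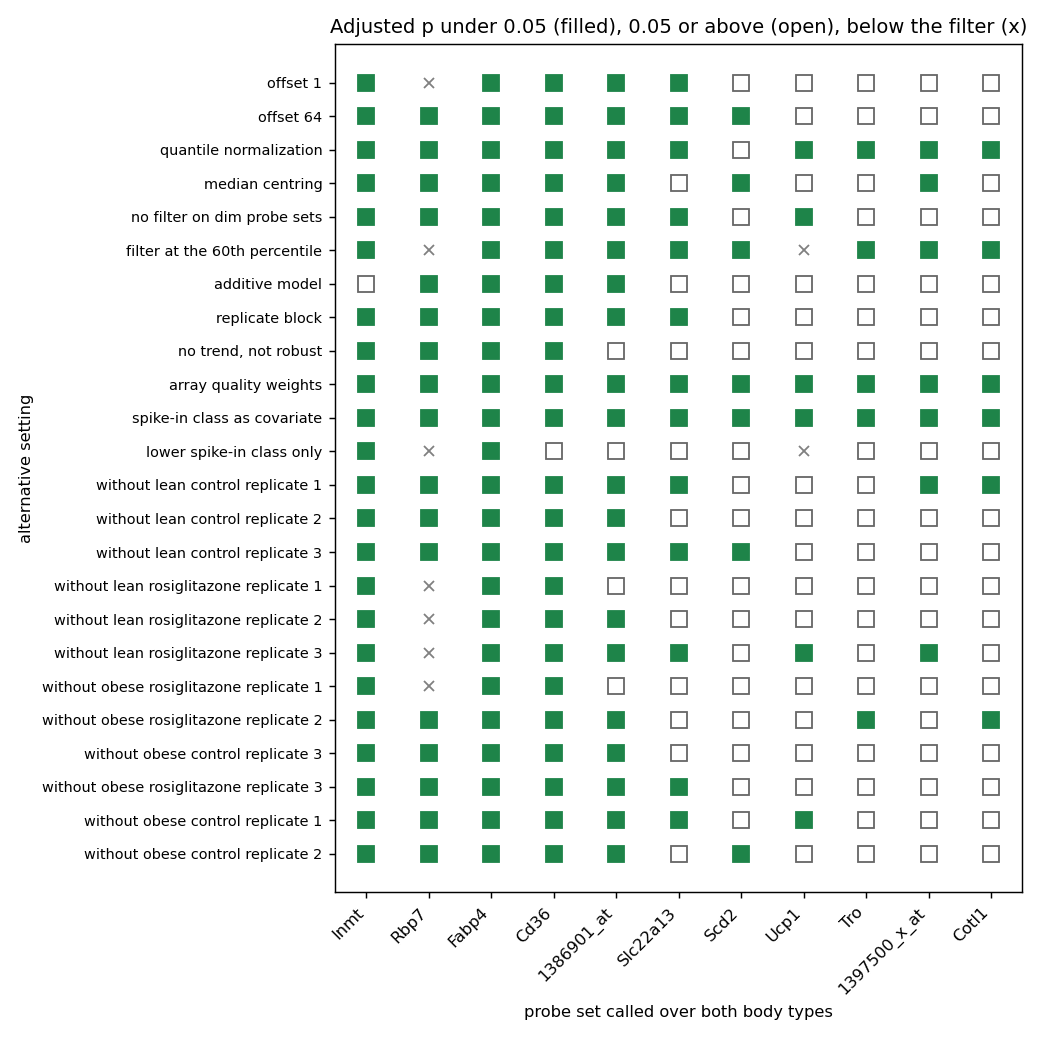
Calls of the 11 probe sets (columns) under each of 24 alternative settings (rows), filled where the adjusted p was under 0.05, open where it was not, and a cross where the probe set was below the filter or had no value. The columns of Inmt, Fabp4 and Cd36 are filled almost throughout, and those of Scd2, Ucp1, Tro, 1397500_x_at and Cotl1 mostly open.

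The spike-in class moved with the groups, since no obese rosiglitazone array was in the higher class. With the class as a covariate 20 probe sets were called, among them all 11. Within the 7 arrays of the lower class, the log2 changes in lean and obese rats were 0.68 and 2.65 for Fabp4, 0.92 and 0.93 for Cd36, 1.50 and 2.34 for Rbp7, 1.59 and 0.33 for Inmt and 0.77 and 2.80 for Ucp1. Within the higher class, which gives lean rats only, they were 2.38, 1.52, 2.11, 1.29 and 2.30. The lean values of the lower class are 1 array against 1, control array 3 and rosiglitazone array 3, the latter being the array that stood apart, and have no error. Scd2 had 0.24 and 0.93 in the lower and 0.73 in the higher class, Slc22a13 0.17 and 2.28 and 0.36, and Cotl1 −0.23 and −0.73 and −0.28.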

How the data were processed

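Kidney RNA from 12 rats was measured on 12 arrays, 3 per group, per the labels. The authors deposited 1 signal intensity per probe set and array, on a linear scale, made with MAS5 per the submitters' processing notes, where no version stands. Neither the scaling target nor later steps are given. Because trimmed means of the deposited intensities lay between 500.12 and 500.15, the arrays were not scaled again. Precision is limited by the small number of arrays.

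Of 31099 probe sets, 57 controls were left out. Signals were turned to log2 after adding 16, and a probe set stayed if its mean reached the 40th percentile (7.32), as 18625 did. The array annotation gave 1 symbol to 20826 of 31042 probe sets, several to 436 and none to 9780. The GRCr8 gene table held the gene IDs of 20758 of them, and 0 symbols needed an update. The 4 group means were fitted with limma 3.58.1 (statmod 1.5.0, R 4.3.3), with trend and robust eBayes and 8 residual degrees of freedom. Contrasts were the mean of the lean and the obese drug effect, each effect, and their difference, with Benjamini-Hochberg adjustment over all 18625. The conjunction p is the larger of the lean and the obese p where both have 1 sign, and 1 otherwise. The procedure was run on simulated data in which lean and obese rats had the same added change, so unequal changes were not covered.

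Named genes are called, non-overlapping probe sets with 1 symbol (up to 12 each way, 1 probe set a gene, the brightest), up to 4 members of smallest p from each list with a called member, and a fixed set looked up. Other genes that were named after their values were seen are said to be so, or follow from a stated size or rank. Some genes of that set are not reported here. Members and the 32 lists were chosen with earlier results of these data known, and no list was tested as a set. Alternatives covered the offset, scaling, filter, model, weights, spike-in class and leaving out each array.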

Additional observations from a re-analysis of the deposited data

Results flagged for a closer look

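Ace, the angiotensin converting enzyme, moved in opposite directions in the 2 body types on its brighter probe set. Its signals were 648, 572 and 594 in lean control and 479, 502 and 456 in lean rosiglitazone rats, against 251, 226 and 221 in obese control and 441, 361 and 420 in obese rosiglitazone rats. Every treated lean rat lay below and every treated obese rat above the control rats of its body type. The obese minus lean difference in log2 change was 1.09 (SE 0.18, unadjusted p = 2.78e-05, adjusted p = 0.173 with limma), the lean change being −0.33 and the obese change 0.76, so the mean over both, 0.22, describes neither. A dimmer Ace probe set, below the filter, had −0.02 in lean and 0.50 in obese rats (SE 0.43 each). Among 18625 probe sets 79 (0.424%) did not overlap in both body types in opposite directions. Groups of 3 are too small for a test of outlying arrays.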

How the results depend on the processing

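The direction of every named gene that was called held in each alternative. The count of 11 called probe sets became 5 with an offset of 1, 7 with an offset of 64, 7 with median centring, 7 with no filter on dim probe sets, 4 with the additive model, 4 without trend and robust settings, 20 with a covariate for the spike-in class and 3 within its lower class. Calls higher on the drug, 9, became 5 with an offset of 1, 4 with the additive model, 4 without trend and robust settings, 17 with the class covariate and 2 within the lower class. Calls lower, 2, became 0 with either offset, with no filter, with the additive model and without trend and robust settings, 1 with median centring, 1 within the lower class and 4 with array weights. Leaving out 1 array gave 3 to 10 calls in all, 3 to 8 higher and 0 to 3 lower. Quantile normalization, the 60th percentile filter and array weights gave 11, 9 and 16 calls, of which 10, 9 and 11 were among the main 11. An adjusted p of 0.1 gave 15.

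With the replicate number of the titles as a replicate block, 6 were called, all among the 11, and 0 lower. Whether the numbers pair the rats is not given in the sources used here, and the rule that every pair exceed 0.1 was not met. Between control and treated arrays of 1 body type, same-numbered pairs had 0.10, 0.13 and 0.18 in lean rats (other pairs −0.17 to 0.04) and 0.08, 0.04 and 0.06 in obese rats (other pairs −0.19 to 0.15). In lean rats numbers 1 and 2 are in the higher spike-in class and number 3 in the lower. Over all groups, deviations of same-numbered arrays had correlations of −0.18 to 0.18 (mean 0.03, 4 of 18 pairs over 0.1), other pairs a mean of −0.02, and 5 of 12 arrays correlated best with their own number. The conjunction gave 0 calls in every setting that was run. It has no value in the additive model, which has 1 drug effect, and the higher spike-in class alone could not be fitted because it holds no obese rosiglitazone array.

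Within the lower class, list medians moved to 0.17 for white fat, 0.02 for fatty acid uptake, −0.01 for fatty acid synthesis, −0.01 for endothelium and 0.13 for retinoid handling, and the uptake median was 0.05 with every probe set of a gene. The correlation of lean and obese changes ran from −0.04 without lean rosiglitazone array 2 to 0.12 without obese rosiglitazone array 1. The cause of these shifts was not tested. Obese control signals of Ucp1 and Rbp7 under 68.9 limit the size of their changes.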
